A study of Homo sapiens with 6 samples.

Results

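Pleiotrophin (PTN), midkine (MDK), their receptors PTPRZ1 and ALK and the 4 syndecans SDC1 to SDC4 were followed in WM164 melanoma cells. These 8 genes were taken by symbol from a table of 60504, and each symbol matched 1 row. The set was selected on values of the same comparison that is described here, because PTN was among the largest rises in it. The change of these 8 genes between the groups is therefore given as a description without a test.

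PTN and MDK are small, basic, heparin-binding growth factors that are secreted during nervous system development and are often made again by tumours. They bind the sulfated sugar chains of PTPRZ1, a receptor tyrosine phosphatase of glia that also carries chondroitin sulfate, and of the syndecans, membrane proteoglycans with heparan sulfate chains. Binding of PTN to PTPRZ1 is known to block its phosphatase activity. ALK is a receptor tyrosine kinase of the developing nervous system for which both factors have been described as ligands.

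The libraries came from WM164, a human melanoma cell line with the BRAF V600E mutation. In the EV group (n = 3) the cells carried an empty expression vector, and in the HDAC8 group (n = 3) a vector for HDAC8, a class I histone deacetylase. All cells were transfected and kept in hygromycin, no drug treatment is named, and whether the cells were a pool or a clone is not given in the sources used here. The labels number the biological replicates but do not say that they came from separate cultures, so the errors measure only the spread between these libraries.

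Total counts ran from 34741083 to 42041462 per library and overlapped between the groups. HDAC8 itself had 383.8, 404.4 and 478.8 normalized counts in EV 1, 2 and 3 and 484.8, 445.5 and 473.7 in HDAC8 1, 2 and 3 (log2 difference 0.15, SE 0.28, DESeq2 adjusted p = 0.856). The groups overlapped, so the labels could not be checked by this transcript, and each direction given here is that of the libraries labelled HDAC8. Of 8 melanocyte lineage markers, 5 were called lower and 0 higher, while SOX10 and MITF were well expressed in both groups. Mitochondrially encoded genes took 9.66% to 12.8% of counts in EV and 4.46% to 7.94% in the HDAC8 group. A fit without them called the same number of the 8 genes. In cultured cells sequenced in bulk, a change in each cell and a change in the share of cells that express a gene cannot be told apart.

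The sequence before the start of PTN is shown because this gene went from no reads to expression. PTN (ENSG00000105894) spans 116.4 kb on chromosome 7, from 137227341 to 137343774 on the minus strand in GENCODE 44 (GRCh38). RefSeq places the start 41 bases further into the gene than GENCODE. The 209 bases before the GENCODE start, from the RefSeq promoter table (GRCh38.p14, chr7:137343775-137343983, minus strand), are printed 5′ to 3′ with the only motif found in them, a CCAAT box, in capitals.
PTN upstream: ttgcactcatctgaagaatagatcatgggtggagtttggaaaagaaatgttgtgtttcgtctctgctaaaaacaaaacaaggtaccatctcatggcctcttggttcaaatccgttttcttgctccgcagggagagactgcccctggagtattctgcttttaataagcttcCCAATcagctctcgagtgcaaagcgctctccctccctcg
PTN AP-1 match: agggcgtaatTGAGTCAa

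The 18-base run (chr7:137343684-137343701, minus strand) holds a match to TGACTCA on the opposite strand, at positions 43 to 49 after the RefSeq start, with the match in capitals. TGACTCA is the motif of AP-1, the dimer of JUN and FOS proteins, and JUN is a factor the study follows. It was searched on both strands in windows of 250 bases before to 50 bases after each start. Of 27305 such windows 4.92% held it, and of the 6 windows of these genes PTN alone did. The E-box CACGTG, which MITF can bind, was in 7.43% of all windows and in 0 of the 6. The GC box GGGCGG was in 44.6% of all windows and in 5 of the 6, all except PTN. CCAAT was in 35.7% of all windows and in those of PTN and ALK. TATAAA was in 12% of all windows and in 0 of the 6. MDK and SDC2 had no window in the table. These matches describe letters and not binding.

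The ligands were examined first. PTN had 0 counts in each EV library, which allows up to 3 counts per library, or 2.80 to 3.15 normalized counts. Its normalized counts were 95.8, 315.4 and 245.0 in HDAC8 1, 2 and 3. No reads were seen in EV and reads in all HDAC8 libraries, with HDAC8 1 well under the others. The mean of 218.7 ± 112.2 (SD, n = 3) was 69.5 times the largest EV floor, and 54.5 to 88.9 times when 1 library was left out. This is a lower bound only in that EV stands at its floor, and it leaves out the spread of the HDAC8 libraries. An opposite-strand noncoding gene inside PTN, ENSG00000231114, had 0 counts in each EV library and 14, 24 and 10 counts in HDAC8 1, 2 and 3. Whether the counting used strand is not given in the sources used here, so reads of PTN and of this gene could have been exchanged.

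MDK (ENSG00000110492, chromosome 11, 46380756 to 46383837, plus strand) was present at low counts in EV. Its normalized counts were 31.5, 24.3 and 25.6 in EV 1, 2 and 3 and 379.7, 516.2 and 430.1 in HDAC8 1, 2 and 3. The groups were far apart, and within each group the libraries lay close together. The means were 27.1 ± 3.8 and 442.0 ± 69.0 (SD, n = 3). On the log2 scale this was 4.03 (SE 0.41), a 16.3-fold higher level with a 95% interval from 9.31 to 28.6. The last bases of MDK overlap CHRM4 on the opposite strand, which had 36, 48 and 49 counts in EV and 17, 15 and 10 counts in the HDAC8 libraries. CHRM4 was not called (log2 fold change -1.68, SE 0.99, DESeq2 adjusted p = 0.312).

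**Figure D1:**
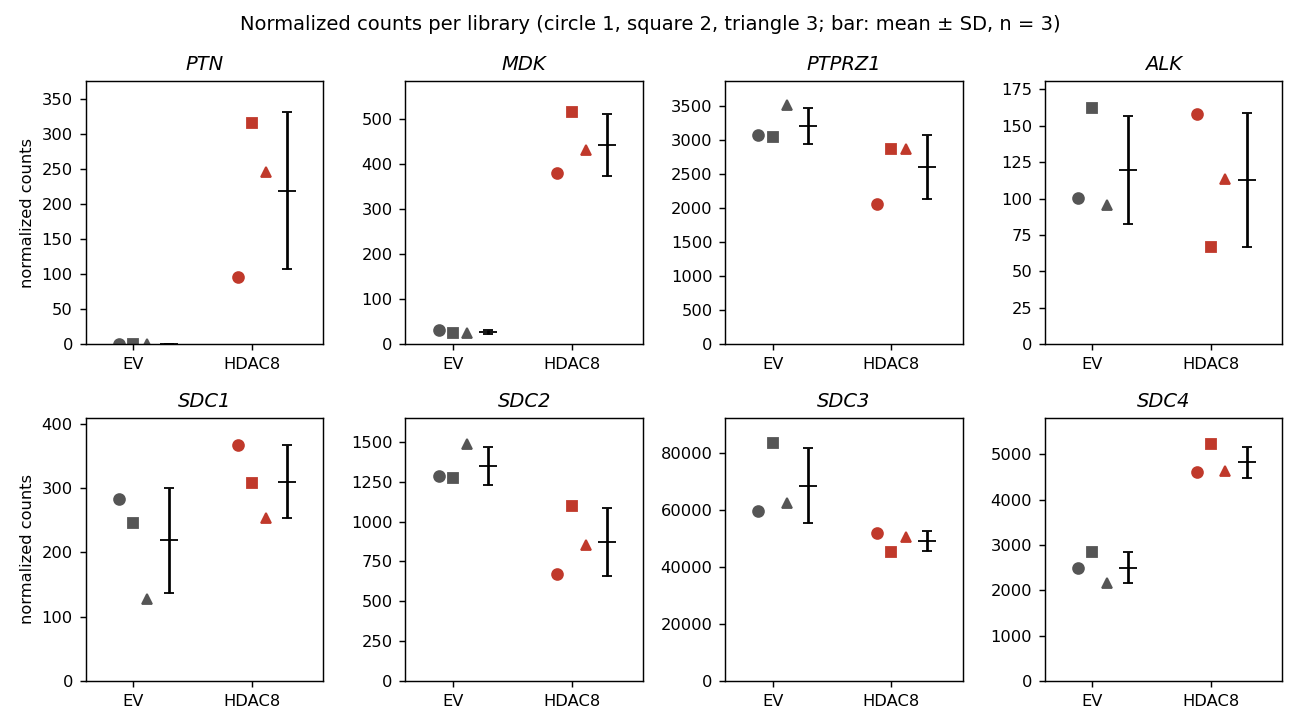
Normalized counts (vertical axes, each from 0) of the 8 genes in every library, with EV in grey, HDAC8 in red, symbols for replicates 1, 2 and 3, and mean ± SD beside them. PTN is at 0 in EV and from 95.8 to 315.4 in HDAC8, MDK and SDC4 are higher in each HDAC8 library than in any EV library, and ALK and SDC1 overlap.

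The signalling receptors did not show a change of this size. PTPRZ1 (ENSG00000106278, chromosome 7, 121873089 to 122062036, plus strand) had 3076.6, 3051.2 and 3514.9 normalized counts in EV 1, 2 and 3 and 2060.7, 2880.9 and 2868.3 in HDAC8 1, 2 and 3. Each HDAC8 library was below each EV library, although the highest HDAC8 value was near the lowest EV value. The log2 fold change was -0.30 (SE 0.18), and the 95% interval of the ratio ran from 0.634 to 1.03. ALK (ENSG00000171094, chromosome 2, 29192774 to 29921586, minus strand) had 100.7, 162.5 and 95.6 normalized counts in EV and 158.2, 66.6 and 113.3 in HDAC8 1, 2 and 3. The groups overlapped fully, and at these counts a ratio anywhere from 0.433 to 2.05 lay within the 95% interval. The log2 fold change of ALK (-0.09, SE 0.57) ran from -0.41 to 0.20 across the alternative fits.

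Among the syndecans, SDC4 differed most between the groups. SDC4, the widely expressed syndecan of focal adhesions (ENSG00000124145, chromosome 20, 45325288 to 45348424, minus strand), had 2483.1, 2847.6 and 2170.2 normalized counts in EV and 4616.6, 5227.3 and 4630.2 in HDAC8 1, 2 and 3. The lowest HDAC8 library was well above the highest EV library. The mean went from 2500.3 ± 339.0 to 4824.7 ± 348.7 (SD, n = 3), or by 0.95 on the log2 scale (SE 0.16), with a 95% interval of the ratio from 1.55 to 2.40.

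SDC3, the neural syndecan (ENSG00000162512, chromosome 1, 30869466 to 30908758, minus strand), had by far the most counts of the 8 genes. Its normalized counts were 59564.8, 83702.9 and 62681.6 in EV and 51864.1, 45289.9 and 50732.1 in HDAC8 1, 2 and 3. The groups did not overlap, and EV 2 stood above the other EV libraries. Its log2 fold change was -0.48 (SE 0.15).

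SDC2, a syndecan of mesenchymal and neural cells (ENSG00000169439, chromosome 8, 96493813 to 96611790, plus strand), had 1285.6, 1273.0 and 1488.5 normalized counts in EV and 673.8, 1098.9 and 851.6 in HDAC8 1, 2 and 3. The groups did not overlap, with HDAC8 2 nearest to EV. Its log2 fold change was -0.63 (SE 0.23) and ran from -0.82 to -0.47 across the alternative fits. SDC1, the epithelial and plasma cell syndecan (ENSG00000115884, chromosome 2, 20200797 to 20225433, minus strand), had 282.1, 245.6 and 127.1 normalized counts in EV and 366.8, 308.3 and 253.7 in HDAC8 1, 2 and 3. The groups overlapped, and EV 3 was the lowest library. The log2 fold change was 0.51 (SE 0.41).

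A gene was called when its DESeq2 adjusted p (Benjamini-Hochberg over all genes) was under 0.05 and its log2 fold change at least 0.58 in size. All 8 genes passed the filter on low counts. By this rule 3 of the 8 (PTN, MDK and SDC4) were higher and 0 were lower, where 5.57% of 21021 genes were called higher, 5.44% lower and 11.0% in either direction. Over all genes DESeq2 called 1170 higher and 1143 lower, and edgeR 908 and 900. On simulated data edgeR made far fewer false calls, but whether that ranking depends on the simulated spread was not tested. Groups were free of overlap for 6 of the 8 genes, against 29.1% of all genes with an adjusted p. The members were chosen from this contrast, so the counts stand as a description only. The median log2 fold change was 0.21 over the 8 genes and -0.003 over all genes.

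**Figure D2:**
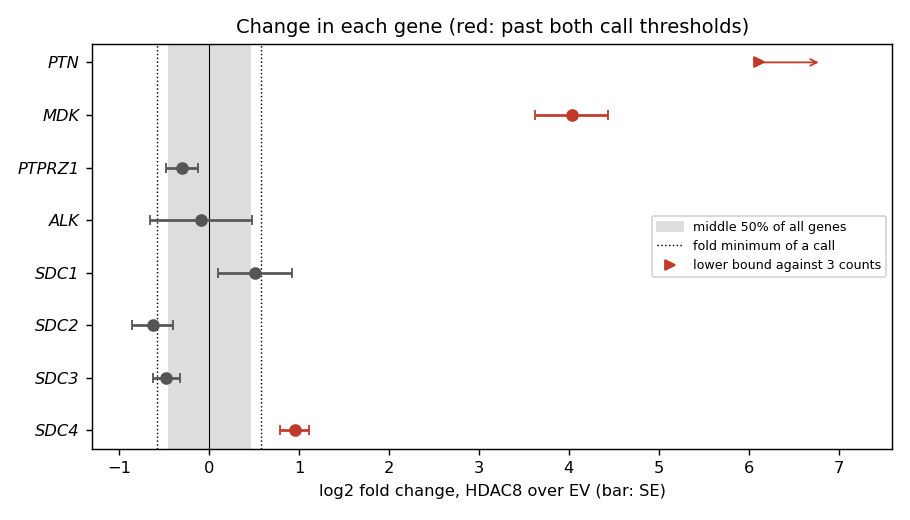
Log2 fold change of HDAC8 over EV (horizontal axis, bars are SE) for the 8 genes, with red for genes past both call thresholds, grey shading for the middle 50% of all genes (-0.45 to 0.45) and dotted lines at the fold minimum of 0.58. PTN is drawn as a lower bound of 6.12, its HDAC8 mean against the EV floor, without the spread of the HDAC8 libraries. MDK lies at 4.03 and SDC4 at 0.95, while the other genes lie between -0.63 and 0.51.

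Levels of different genes were compared as normalized counts per kilobase of exonic length, the union of all annotated exons of a gene. In EV the order from high to low was SDC3 (9717 ± 1858, SD, n = 3), SDC4 (957 ± 130), SDC2 (330 ± 29.6), PTPRZ1 (317 ± 25.7), SDC1 (60.4 ± 22.4), ALK (16.2 ± 5.05), MDK (12.4 ± 1.75) and PTN (0). The ranges of SDC2 and PTPRZ1 overlapped, as did those of ALK and MDK. In the HDAC8 group the order was SDC3 (6977 ± 497), SDC4 (1846 ± 133), PTPRZ1 (257 ± 46.4), SDC2 (214 ± 52.3), MDK (203 ± 31.6), PTN (135 ± 69.2), SDC1 (85.7 ± 15.7) and ALK (15.3 ± 6.21). There the ranges of neighbours overlapped all the way from PTPRZ1 to SDC1. MDK was thus next to last in EV and in the range of PTPRZ1 in the HDAC8 group.

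The summed level of PTN and MDK per length was 0.0475, 0.0370 and 0.0339 times that of PTPRZ1 in EV 1, 2 and 3, and 1.15, 1.52 and 1.23 times in HDAC8 1, 2 and 3. The ligands were scarce beside PTPRZ1 in each EV library and exceeded it in each HDAC8 library. PTN made up 0% of the ligand level in EV and 25.3%, 45.1% and 43.4% in HDAC8 1, 2 and 3. With the mean length of the annotated transcripts in place of the union of exons, these shares were 12.3%, 25.3% and 24.0%, and the ligands were 1.12, 1.28 and 1.05 times PTPRZ1 in the HDAC8 libraries.

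SDC3 made up 86.3%, 89.0% and 87.8% of the level of the 4 syndecans per length in EV 1, 2 and 3 and 78.3%, 73.1% and 77.8% in HDAC8 1, 2 and 3. The share of SDC4 was 9.72%, 8.18% and 8.22% in EV and 18.8%, 22.8% and 19.2% in HDAC8. SDC3 thus led in each library, with a smaller share in the HDAC8 group, where SDC4 had a larger one. SDC1 and SDC2 together stayed a small part in each library. The mean share of SDC3 was 87.7% in EV and 76.4% in HDAC8, or 90.4% and 84.8% with mean transcript lengths. On that length the share of SDC4 was lower, at 4.49%, 3.76% and 3.75% in EV and 9.26%, 11.4% and 9.42% in HDAC8 1, 2 and 3, and each HDAC8 library was still above each EV library.

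**Figure D3:**
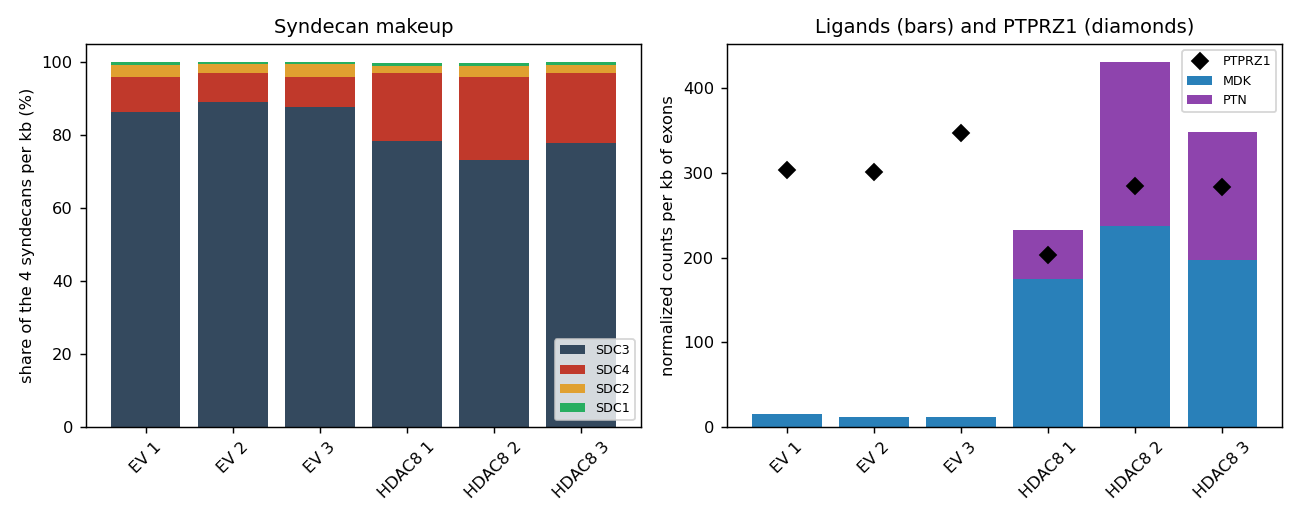
Left, share of each syndecan in the summed level of the 4 per kilobase of exons (percent) in each library. Right, normalized counts per kilobase of exons for MDK and PTN as stacked bars and PTPRZ1 as diamonds. SDC3 takes 86.3% or more of the syndecan level in EV libraries and 78.3% or less in HDAC8 libraries, and the ligand bars are below the diamond in each EV library and above it in each HDAC8 library.

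To determine what lay around the gene that changed most, the 3 nearest protein-coding genes on each side of PTN were examined. These genes were not used to select the set. DGKI, a diacylglycerol kinase 37.3 kb beyond the start of PTN on the same strand, had 64.0, 73.8 and 84.7 normalized counts in EV and 620.8, 1141.9 and 903.8 in HDAC8 1, 2 and 3. Its groups were far apart, and as in PTN and MDK, HDAC8 1 was the lowest of the HDAC8 libraries. HDAC8 1 also differed more from HDAC8 2 and 3 across genes (chi-squared per degree of freedom 153.4 and 101.7). Between HDAC8 2 and 3 this value was 26.0. DGKI rose from a mean of 74.2 ± 10.4 to 888.8 ± 260.9 (SD, n = 3; log2 fold change 3.58, SE 0.33, DESeq2 adjusted p = 5.98e-25).

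CREB3L2, a membrane-bound transcription factor of the secretory pathway 531.2 kb away on the same side, rose from 10116.1 ± 486.1 to 22189.4 ± 3128.3 normalized counts (SD, n = 3; log2 fold change 1.13, SE 0.14, DESeq2 adjusted p = 8.30e-14). Both genes were called in all 14 alternative fits. AKR1D1, the next gene, had 0 counts in each library. On the other side, CHRM2, a muscarinic receptor, had 119.5, 27.1 and 53.2 normalized counts in EV and 21.4, 0.0 and 0.0 in HDAC8 1, 2 and 3. Its groups did not overlap, but it was not called (log2 fold change -3.21, SE 1.40, DESeq2 adjusted p = 0.119). Of 13 alternative fits 2 called it lower, the one with the replicate block and the one without HDAC8 replicate 1, with DESeq2, edgeR or limma adjusted p from 7.34e-05 to 0.600 over all 13. MTPN (log2 fold change 0.30, SE 0.18, DESeq2 adjusted p = 0.338) and FAM180A (1.30, SE 0.97, DESeq2 adjusted p = 0.473) were not called. The groups of FAM180A did not overlap either, with 12.6, 15.9 and 25.6 normalized counts in EV and 46.2, 52.2 and 34.8 in HDAC8 1, 2 and 3. Around MDK, none of the 3 nearest genes on each side was called. DGKZ, which ends 0.2 kb before MDK on the same strand, had a log2 difference of -0.01 (SE 0.19, DESeq2 adjusted p = 0.992). The neighbours of MDK were added after those of PTN had been seen.

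**Figure D4:**
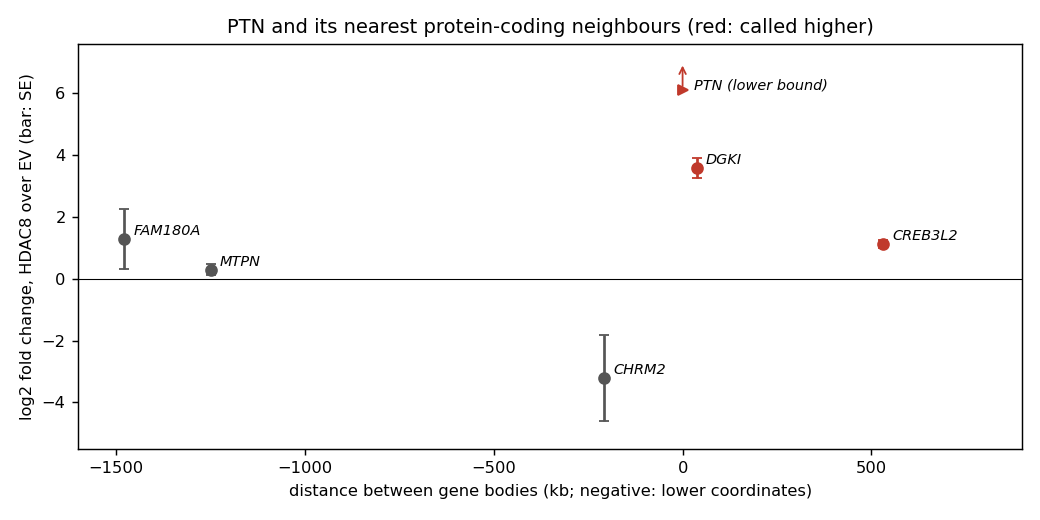
Log2 fold change of HDAC8 over EV (vertical axis, bars are SE) for PTN and its nearest protein-coding genes against the distance between gene bodies in kilobases. DGKI (3.58) and CREB3L2 (1.13) on the higher-coordinate side are called higher, the genes on the other side are not called in this fit, and AKR1D1, with 0 counts, is not drawn.

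To place the ligands in their signalling system, 125 other genes in 8 lists were counted, and 110 had an adjusted p. Of these, 16 were called higher and 11 lower, 24.5% against 11.0% of all genes, with a median log2 fold change of 0.08. With edgeR, 14 were higher and 11 lower. Without EV replicate 3, the lower genes numbered 7. The list genes and all genes were not matched for gene type or level. The lists were also chosen with earlier results of these data known. The list of heparan sulfate enzymes held the most calls, 6 of 26 genes, but it was also the longest list. Its share of 23.1% was under the 24.5% of all lists together. The largest share was that of the ligands and relatives of PTPRZ1 and ALK, 5 of 10 genes.

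Among other receptors described for PTN or MDK, 1 of 10 was called, a share under the 11.0% of all genes. NRP1, a co-receptor for semaphorins and vascular endothelial growth factor, had 2810.3, 2674.8 and 2684.5 normalized counts in EV and 7222.9, 7860.3 and 8289.1 in HDAC8 1, 2 and 3. The groups were far apart, and it rose 2.86-fold (log2 fold change 1.52, SE 0.14, DESeq2 adjusted p = 3.37e-26). NCL, the cell-surface and nucleolar protein nucleolin, had a log2 difference of -0.21 (SE 0.13, DESeq2 adjusted p = 0.355). LRP1, a large endocytic receptor, had a log2 difference of 0.21 (SE 0.18, DESeq2 adjusted p = 0.551).

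Of 10 tested ligands and relatives of PTPRZ1 and ALK, 1 was higher and 4 were lower. TNC, the matrix protein tenascin C that binds PTPRZ1, rose from 31514.7 ± 5764.1 to 58765.4 ± 6951.3 normalized counts (SD, n = 3; log2 fold change 0.90, SE 0.15, DESeq2 adjusted p = 2.51e-07). The 4 lower genes were neural cell adhesion molecules, a kind that makes up much of this list. CNTN3 (log2 difference -0.97, DESeq2 adjusted p = 0.432) and L1CAM (-0.21, DESeq2 adjusted p = 0.53), also of this kind, were not called. NCAM1 had 5632.0 ± 568.7 normalized counts in EV and 1664.7 ± 239.0 in HDAC8 (log2 fold change -1.76, SE 0.17, DESeq2 adjusted p = 1.92e-23). CNTN4 changed by -3.66 (SE 0.78, DESeq2 adjusted p = 7.45e-05), and by -4.54 to -3.09 when 1 library was left out. CNTN1, a known neuronal partner of PTPRZ1, changed by -0.82 (DESeq2 adjusted p = 0.00684), a call that was lost without EV replicate 3 (0.126). NRCAM changed by -1.13 (DESeq2 adjusted p = 0.00444), and its call was lost without EV replicate 1 (0.0565) or 3 (0.0538). PTPRG, the closest relative of PTPRZ1, had a log2 difference of -0.46 (SE 0.12, DESeq2 adjusted p = 0.00181), under the fold minimum.

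ALKAL1, a ligand of ALK, had 0 counts in each library. ALKAL2, the other one, had normalized counts of 14.7, 10.3 and 0.0 in EV and 13.7, 17.4 and 0.0 in the HDAC8 libraries. LTK, the kinase most like ALK, had 9.4 to 27.1 in EV and 17.4 to 50.4 in HDAC8 libraries. Neither was called (DESeq2 adjusted p = 0.970 and 0.737), and a difference was not detectable at these counts.

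Downstream of the receptors, 2 of 16 intracellular partners of PTPRZ1 and ALK were called, both higher. This share of 12.5% was near the 11.0% of all genes. AFAP1L2, an adaptor also known as a substrate of PTPRZ1, had 16.5 ± 7.1 normalized counts in EV and 165.7 ± 52.7 in HDAC8 (SD, n = 3; log2 fold change 3.32, SE 0.65, DESeq2 adjusted p = 1.14e-05). IRS1, a docking protein of insulin and ALK signalling, rose 2.77-fold (log2 fold change 1.47, SE 0.18, DESeq2 adjusted p = 8.08e-14). Among 10 partners of the syndecan tails, 1 was called, a share under the 11.0% of all genes. It was FZD7, a WNT receptor, which was lower (log2 fold change -1.08, SE 0.18, DESeq2 adjusted p = 1.62e-07). SDCBP, the adaptor syntenin that binds syndecan tails, had a log2 difference of -0.18 (SE 0.17, DESeq2 adjusted p = 0.601).

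Of 15 tested other proteoglycans, 1 was higher and 3 were lower. VCAN, the large chondroitin sulfate proteoglycan versican, had 10598.2, 11644.3 and 11334.9 normalized counts in EV and 76.1, 54.3 and 127.4 in HDAC8 1, 2 and 3. The groups were apart by 2 orders of magnitude, a 131-fold lower mean (log2 fold change -7.03, SE 0.22, DESeq2 adjusted p = 4.11e-225). BCAN, the brain proteoglycan brevican, was lower by a log2 difference of -1.29 (SE 0.19, DESeq2 adjusted p = 5.99e-10). The glypicans, heparan sulfate proteoglycans held by a lipid anchor, went both ways. GPC6 had a log2 difference of -1.24 (SE 0.22, DESeq2 adjusted p = 9.36e-07) and GPC1 of 0.81 (SE 0.18, DESeq2 adjusted p = 2.00e-04).

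Enzymes of heparan sulfate, the sugar chain of the syndecans, were called higher in 5 cases and lower in 1 of 26. HS3ST3A1 and HS3ST3B1 add a sulfate group late in the making of the chain. HS3ST3A1 had 70.3, 13.1 and 24.6 normalized counts in EV and 3528.1, 2265.4 and 2401.1 in HDAC8 1, 2 and 3 (log2 fold change 6.25, SE 0.69, DESeq2 adjusted p = 1.57e-17). HS3ST3B1 had 62.9, 77.5 and 52.2 in EV and 1043.2, 1553.6 and 1280.6 in HDAC8 1, 2 and 3 (log2 fold change 4.33, SE 0.29, DESeq2 adjusted p = 1.04e-47). In each the HDAC8 libraries were more than 10 times above any EV library. These enzymes are paralogs that can share reads, and the value of HS3ST3A1 ran from 5.85 to 7.18 when 1 library was left out.

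Smaller differences were called for other genes of this list. EXT1, a polymerase of the chain, had a log2 difference of 0.74 (SE 0.15, DESeq2 adjusted p = 3.13e-05). SULF2, which removes sulfate groups outside the cell, rose by 2.32 (SE 0.55, DESeq2 adjusted p = 4.59e-04), or by 1.89 to 2.92 when 1 library was left out. HPSE, the heparanase that cuts the chains, had a log2 difference of -1.98 (SE 0.60, DESeq2 adjusted p = 0.0111), but missed the threshold when EV replicate 1 (0.0760), 2 (0.102) or 3 (0.0621) was left out.

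Enzymes of chondroitin and dermatan sulfate, the chains of PTPRZ1, were called higher in 3 cases and lower in 2 of 14. CHST11, a sulfotransferase, had 17577.5 ± 1457.8 normalized counts in EV and 7672.1 ± 552.1 in HDAC8 (SD, n = 3; log2 fold change -1.20, SE 0.13, DESeq2 adjusted p = 1.77e-17). CHSY1, a chain polymerase, rose by 0.91 (SE 0.16, DESeq2 adjusted p = 3.17e-07). DSE, the epimerase that turns chondroitin into dermatan sulfate, rose by 2.13 (SE 0.54, DESeq2 adjusted p = 0.00135). UST, a further sulfotransferase, changed by -1.03 (DESeq2 adjusted p = 0.0109), and missed the threshold when EV replicate 1 (0.0734), 2 (0.0639) or 3 (0.0716) or HDAC8 replicate 3 (0.0875) was left out. CHPF, a polymerase subunit, changed by 0.61 (DESeq2 adjusted p = 0.0177). It was not called by edgeR (adjusted p = 0.0772, range 1.95e-05 to 0.183 over its alternatives), without EV replicate 1 (0.183), EV replicate 3 (0.173) or HDAC8 replicate 3 (0.0739), or, at a log2 fold change of 0.55, without HDAC8 replicate 1 or with size factors from upper quartiles.

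Syndecans and midkine receptors can be cut from the cell surface, and of 9 tested proteases that do so and their inhibitors 3 were higher and 0 lower. MMP16, a membrane-bound metalloproteinase, rose from 13795.7 ± 1003.8 to 24869.1 ± 4480.5 normalized counts (SD, n = 3; log2 fold change 0.85, SE 0.15, DESeq2 adjusted p = 1.04e-06). The other genes were the inhibitors TIMP3 (log2 fold change 0.68, SE 0.13, DESeq2 adjusted p = 9.27e-06) and TIMP1 (0.66, SE 0.16, DESeq2 adjusted p = 4.25e-04). MMP7 and MMP9 had 0 counts in each library.

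**Figure D5:**
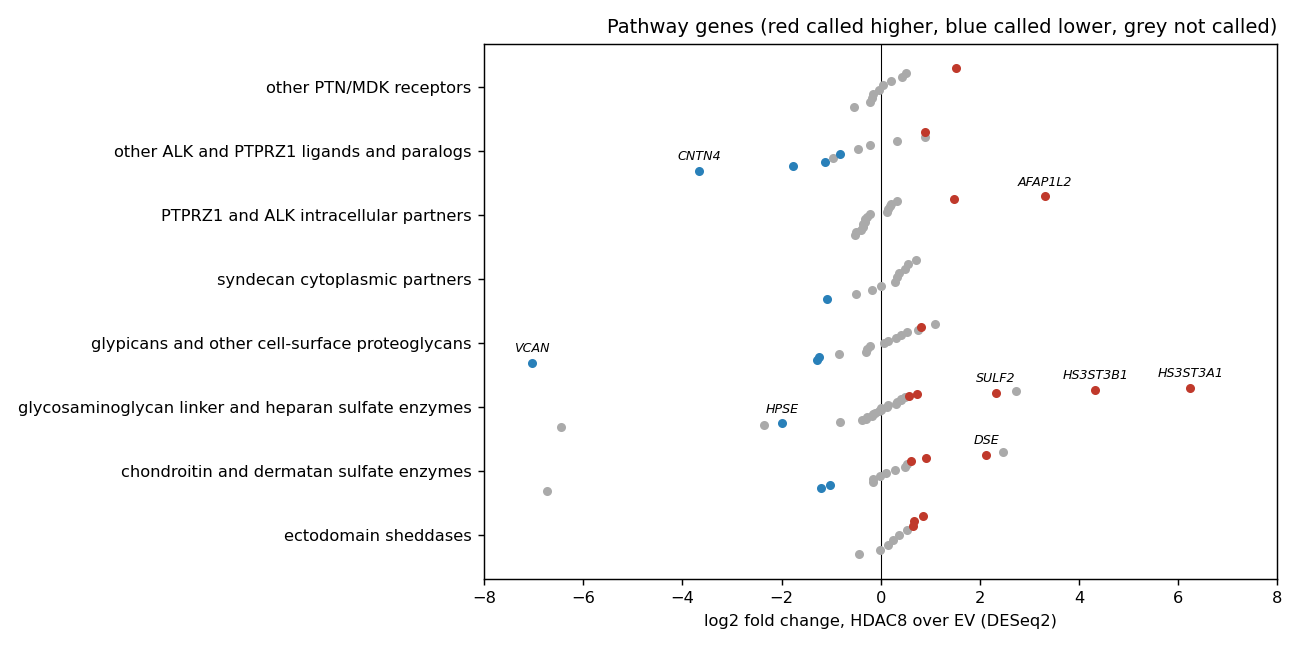
Log2 fold change of HDAC8 over EV (DESeq2, horizontal axis) for each of the 110 pathway genes with an adjusted p, by list, with red for the 16 called higher, blue for the 11 called lower and grey for the rest. VCAN (-7.03) lies far to the left and HS3ST3A1 (6.25) and HS3ST3B1 (4.33) far to the right, and the grey points under -6 are genes with few counts.

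The genes whose pattern over the 6 libraries was most like that of PTN were found by the root mean square difference of log2(normalized count + 1), each gene centred on its own mean, among 12224 protein-coding genes with a mean of at least 50. The nearest were BLNK (0.66), EMX2 (0.79), SLC16A9 (0.94), KIF1A (1.06) and HS3ST3A1 (1.14), where the median gene was at 3.85. MDK ranked 29 (1.87). All 5 had at most 70.3 normalized counts in any EV library and were called higher, as the likeness to PTN requires. With a pseudocount of 10, only KIF1A was still among the nearest 5, and within the HDAC8 libraries alone 0 of the 5 were. The ranking therefore rests on the gap between the groups.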

How the data were processed

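RNA-seq was performed on 3 EV and 3 HDAC8 libraries of WM164 cells. The labels and the study's methods name different RNA extraction kits. After read trimming (Trimmomatic) and alignment to transcripts (STAR), the authors deposited RSEM expected counts per gene, unscaled. An expected count shares ambiguous reads between genes. The genome build, strand setting and duplicate removal are not given in the sources used here.

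Expected counts were rounded. The groups were tested in DESeq2 1.42.0 (R 4.3.3, Wald test, two-sided) over 26162 genes with a total of at least 10 counts, without covariates, and 5141 genes had no adjusted p and were left out. The thresholds are those of the study's methods (adjusted p 0.05, log2 fold change 0.58). Normalized counts are counts over DESeq2 size factors (0.918 to 1.17), and 95% intervals come from the DESeq2 SE. A floor of 3 counts per library stands for 0 and covers counting error only. Fits were tested on simulated data with the spread set gene by gene. There DESeq2 recovered more of the changed genes than edgeR or limma but made far more false calls. These were a large share of its calls there and few with the other tools. The spread of each simulated gene was its own variance between these few libraries, and other settings were not tried. The simulation therefore does not measure false calls in the real data.

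Positions and lengths came from GENCODE 44 (GRCh38) by Ensembl identifier. The members, lists and tests were chosen with earlier results of these data known. Named were all members, the 5 called genes with the smallest adjusted p per list, 6 fixed pathway genes (NCL, LRP1, ALKAL2, LTK, PTPRG, SDCBP), the neighbours of PTN and the 5 genes nearest to it in pattern. CNTN3 and L1CAM were added later. Alternatives were edgeR 4.0.16, limma 3.58.1, other size factors and filters, a fit without mitochondrial genes, a replicate block, each library left out, and another length or pseudocount. Values of some single marker genes are not reported here.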

Additional observations from a re-analysis of the deposited data

How the results depend on the processing

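Across 14 alternative fits, the 8 member values moved by less than the spread between libraries, and 3 members were called higher (2 under a filter of 10 counts in each library, which removes PTN). The count of members called lower, 0 in the reported fit, was 1 (SDC2) with limma-voom, with size factors from upper quartiles and under the filter of 10 counts per library, and 0 to 1 when 1 library was left out (1 without HDAC8 replicate 2). Leaving out 1 library gave 877 to 1218 higher and 746 to 1378 lower genes over all genes, and 14 to 17 higher and 7 to 12 lower pathway genes. The lowest counts of lower genes came without EV replicate 3, and the cause was not tested. Replicate numbers did not pair the libraries, since the deviations from the group means had correlations of -0.027, -0.066 and 0.04 within the numbers 1, 2 and 3 (14451 genes), and each EV library correlated best with an HDAC8 library of another number. A fit with the replicate block called 1075 genes higher and 1078 lower, with 3 and 0 of the members and 16 and 11 of the pathway genes. Of 444 values of named pathway genes, 427 kept direction and call, 16 lost the call and 1 changed direction, that of ALKAL2 without EV replicate 3 (-0.27, with a range of -0.27 to 1.01 over the libraries left out, none called). With mean transcript lengths SDC3 made up 90.4% of the syndecan level in EV and 84.8% in HDAC8, and SDC2 came before SDC4 in EV. In the HDAC8 group SDC2 then came before PTPRZ1, and SDC1 before PTN. No scaling moved the median of all genes by more than 0.055 (log2). Low counts limit what ALK, SDC1, LTK and ALKAL2 can show.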

Other observations

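Markers of other cell types were read for their summed level. Of 7 Schwann cell and glial markers, 2 were called higher, 0 lower and 5 not at all, 28.6% against 11.0% of all genes. Their median log2 fold change was 0.28. Their sum ran from 25087.9 to 29889.6 normalized counts in EV and from 32105.7 to 41203.6 in the HDAC8 libraries. NGFR, the low-affinity neurotrophin receptor of neural crest cells, had 155.2, 206.4 and 176.3 normalized counts in EV and 1242.4, 985.2 and 949.6 in HDAC8 1, 2 and 3 (log2 fold change 2.56, SE 0.27, DESeq2 adjusted p = 2.97e-19). PMP22, a myelin protein also made outside glia, rose by 1.53 (SE 0.19, DESeq2 adjusted p = 9.06e-14). The 8 melanocyte lineage markers summed to 244960.8 to 328760.5 in EV and 137043.5 to 182217.7 in the HDAC8 libraries. The Schwann cell and glial sum was higher in the HDAC8 libraries, while the melanocyte sum was lower. Only NGFR and PMP22 were called among the Schwann cell and glial markers, so their sum does not show a rise of the whole set. The part of either sum in the result was not tested.

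Of 7 fibroblast markers, 1 (PDGFRA) was called higher and DCN had 0 counts, with sums from 2528.2 to 2982.2 in EV and from 1513.4 to 2423.2 in HDAC8. Of 5 immune markers, CD3E and CD68 were called higher and PTPRC was at or under 3 counts in each library, with sums from 2357.3 to 3354.7 in EV and from 4321.6 to 6278.9 in HDAC8. CD3E had 0 counts in each EV library and 78.7, 91.1 and 50.1 normalized counts in the HDAC8 libraries. None of the 5 endothelial markers (272.6 to 442.4 in EV, 162.2 to 395.9 in HDAC8) or the 4 keratinocyte markers (146.6 to 280.0 and 165.4 to 176.2) was called, and CDH5 and KRT1 had 0 counts.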
